A study of Bos taurus with 3 samples.

Results

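Among 20728 epithelial cells of the cow rumen, 1210 held at least 1 UMI each of DLK2, PDK4 and CDKN1C, and these triple-positive cells are described here. A UMI (unique molecular identifier) marks 1 captured transcript molecule, so that PCR copies are counted once. The ventral sac of the rumen was sampled from 3 adult lactating Holstein dairy cows, all under 1 condition, with 1 library per cow made with the Chromium Single Cell 3' v3 chemistry. The tissue was freed of its outer muscle, digested with enzymes, and the study kept epithelial cells after removing other cell types, low-quality cells and doublets. The 1210 cells were selected on measured values, namely the UMIs of these 3 genes, so their levels of DLK2, PDK4 and CDKN1C are given as a description with no test. They were set beside 3069 DLK2-only cells, which had at least 1 UMI of DLK2 and 0 UMIs of PDK4 and CDKN1C, and beside 12894 DLK2-negative cells with 0 UMIs of DLK2. The remaining cells, 2771 with DLK2 and PDK4 but no CDKN1C and 784 with DLK2 and CDKN1C but no PDK4, filled the other classes. DLK2-negative cells were not selected on PDK4 or CDKN1C.

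The rumen lining is a stratified squamous epithelium in which cells divide next to the basement membrane, leave the cell cycle and differentiate as they move outward. DLK2 encodes a membrane protein related to the Notch ligands. PDK4 encodes a kinase that switches off pyruvate dehydrogenase, the gate through which pyruvate enters mitochondrial oxidation, and its transcript is known to rise with fasting, fatty acids and glucocorticoids through FOXO, PPAR and glucocorticoid receptors. CDKN1C encodes p57, an inhibitor of cyclin-dependent kinases that is found in cells leaving the cell cycle, and THBS1 encodes thrombospondin-1, a secreted matricellular protein that can activate TGF-beta.

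Triple-positive cells were found in all 3 cows but in unequal shares. They were 255 of 3369 cells in cow 1 (7.57%, exact 95% interval 6.70% to 8.51%), 764 of 7401 in cow 2 (10.3%, 9.64% to 11.04%) and 191 of 9958 in cow 3 (1.92%, 1.66% to 2.21%), a mean of 6.60% ± 4.28 (SD, n = 3 cows). The intervals cover counting error only, and those of the cows do not overlap. When every cell was thinned to 5000 UMIs, which left out 1518 shallower cells and among them 83 of the 1210, the shares were 3.23%, 5.35% and 0.875%, in the same order. Among cells with a mitochondrial share under 20% they were 10.7%, 10.5% and 2.01%. Among cells of 8000 to 20000 UMIs they were 7.35%, 7.29% and 1.19%. In these settings cow 1 was level with cow 2 and their intervals overlapped, while cow 3 stayed lowest.

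Most triple-positive cells sat close to the threshold of the rule. Exactly 1 UMI of DLK2 was held by 557 of the 1210 cells (46.0%), exactly 1 of CDKN1C by 606 (50.1%) and exactly 1 of PDK4 by 309 (25.5%). In 97 cells (8.02%) each of the 3 genes had 1 UMI, and 274 cells (22.6%) had at least 2 of each. Just outside the rule were the 784 DLK2-positive cells that lacked only PDK4 and the 2771 that lacked only CDKN1C.

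Triple-positive cells were not the deeper cells. Their median UMIs per cell were 8557, 8271 and 7048 in cows 1, 2 and 3, against 10574, 12554 and 9779 in DLK2-only cells and 11197, 13331 and 9974 in DLK2-negative cells. In every cow the median was lowest in triple-positive cells of these 3 classes. The share of a cell's UMIs from mitochondrial genes was also lowest, with medians of 8.70%, 7.94% and 8.43%, against 16.9%, 11.3% and 12.4% in DLK2-only cells and 20.0%, 11.5% and 12.6% in DLK2-negative cells. Neither trait was particular to triple-positive cells. Cells with DLK2 and CDKN1C but no PDK4 came close, with mitochondrial medians of 9.42%, 8.67% and 9.83% and depths of 7481, 8598 and 7656 UMIs. The summed depth of triple-positive cells was 2461487, 7491821 and 1550308 UMIs. The 15 sums of 3 cows and 5 classes ranged from 1145041 to 78586289. Of the 1210 cells, 3 carried a barcode sequence that also occurred in another cow, among 70 such cells in all.

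**Figure D1:**
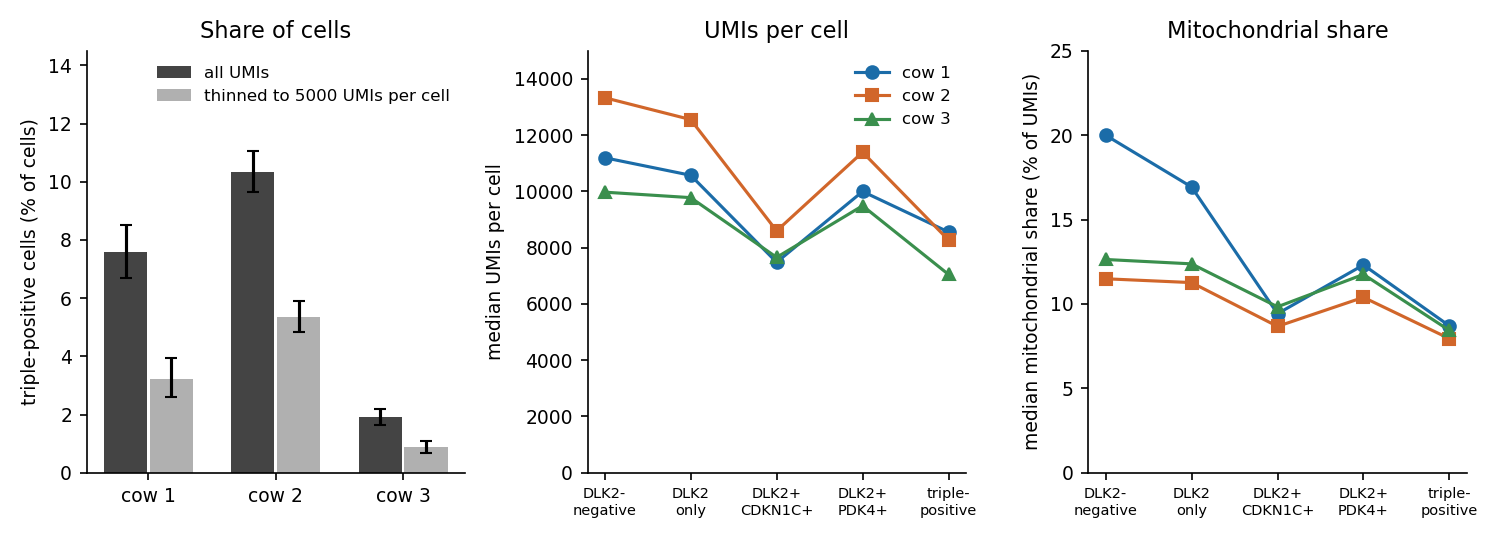
Share of triple-positive cells per cow with exact 95% intervals, before and after thinning to 5000 UMIs per cell, and the median UMIs and median mitochondrial share (% of UMIs) of each class, with a line per cow. The share ran from 1.92% in cow 3 to 10.3% in cow 2, and triple-positive cells had medians of 7048 to 8557 UMIs.

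Of the 3 genes of the rule, PDK4 differed between cows and CDKN1C hardly did. In triple-positive cells PDK4 (ENSBTAG00000014069) stood at 512, 868 and 275 UMIs per 1000000 UMIs of the sum (CPM) in cows 1, 2 and 3, while CDKN1C (ENSBTAG00000031184) stood at 233, 237 and 265 CPM. DLK2 (ENSBTAG00000005850) was at 208, 221 and 179 CPM, against 148, 155 and 141 CPM in DLK2-only cells. In DLK2-negative cells, which the rule left free for the other genes, PDK4 was at 102, 250.0 and 31.4 CPM and CDKN1C at 19.8, 20.0 and 24.5 CPM. The order of the cows in PDK4 was thus the same in both classes. It was also the order of the share of triple-positive cells when all cells were used. The rule asks for a UMI of PDK4, so that likeness follows in part from the rule and is no separate observation.

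The same held after thinning to 5000 UMIs. Among DLK2-positive cells, 43.1%, 60.0% and 16.0% had a UMI of PDK4 in cows 1, 2 and 3, while 20.4%, 21.2% and 20.5% had a UMI of CDKN1C. Both genes were found together in 12.1%, 15.7% and 5.21% of these cells, and in 5.15%, 6.45% and 2.27% of DLK2-negative cells. In each cow the joint share was higher in DLK2-positive cells.

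PDK4 and CDKN1C met in the same DLK2-positive cell somewhat more often than their single shares give. Within 5 strata of UMIs per cell, the product of the shares came to 205, 679 and 157 cells in cows 1, 2 and 3, and 255, 764 and 191 were counted, which are ratios of 1.24, 1.13 and 1.21. The ratio was above 1 in each of the 15 strata, with a range from 1.07 to 1.58. No test was made on these genes, since they chose the cells.

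Each cell's UMIs were also divided at random into 2 parts, each UMI going to either with a probability of 0.5. The rule was applied to the first part and the levels were read in the other. The classes were thus drawn anew, with 104, 292 and 48 triple-positive cells in cows 1, 2 and 3. DLK2-only cells drawn this way can hold PDK4 or CDKN1C among all their UMIs. The rule genes chose the cells, so these levels are a description and no support for the class. In that unused part PDK4 was at 5.51 ± 3.21 UMIs per 10000 in triple-positive cells and 0.420 ± 0.215 in DLK2-only cells (mean ± SD, n = 3 cows). CDKN1C was at 2.13 ± 0.170 against 0.217 ± 0.0764 per 10000. DLK2, which both classes were chosen on, was at 1.38 ± 0.483 against 1.14 ± 0.264 per 10000. By cow it was at 1.45, 1.82 and 0.866 against 1.25, 1.32 and 0.834. In cow 3 it rested on 19 UMIs in 48 triple-positive cells, so the classes were near level there, and no difference was tested.

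Dividing cells were taken as the cells least likely to hold CDKN1C, although whether the UMIs found there are free RNA or expression was not tested. Of cells with at least 2 UMIs each of MKI67 and TOP2A, which mark division, 4.17%, 4.96% and 6.44% had a UMI of CDKN1C in cows 1, 2 and 3, at median depths of 16659, 20794 and 15547 UMIs. In the other cells the shares were 21.1%, 19.2% and 19.1% at lower median depths of 9936, 11898 and 9397 UMIs. Only 1, 4 and 3 dividing cells were triple-positive, and after thinning 0 of 187, 0 of 141 and 0 of 935 were. DLK2 and PDK4 were both found in dividing cells, DLK2 in 17.7%, 21.3% and 18.9% and PDK4 in 25.5%, 41.8% and 17.6% of them, so they are no blank for these genes.

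**Figure D2:**
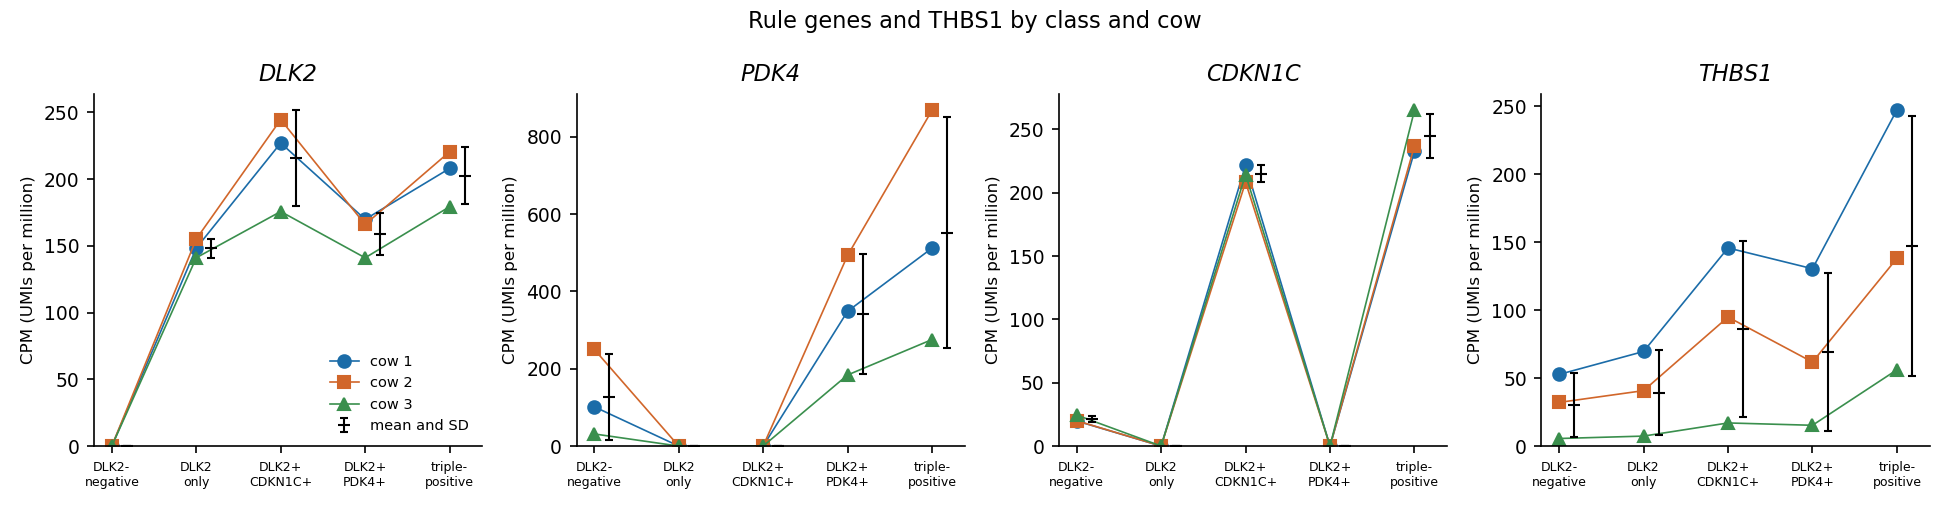
CPM (UMIs per 1000000 of the sum) of the genes of the rule and of THBS1 in 5 classes of cells, with a line per cow, and the mean with its SD over 3 cows in black. The rule itself sets the zeros of DLK2, PDK4 and CDKN1C, and in triple-positive cells PDK4 ran from 275 to 868 CPM while CDKN1C ran from 233 to 265 CPM.

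THBS1 (ENSBTAG00000002006) is not in the rule, but it was listed as a marker of these cells from earlier results of the same data, so its values are given here as a description with no p. It stayed in the fit across all genes and is counted below wherever it was called, which is no independent evidence. It was at 247, 138 and 56.1 CPM in triple-positive cells of cows 1, 2 and 3, against 69.6, 40.8 and 7.34 CPM in DLK2-only cells and 52.7, 32.1 and 5.56 CPM in DLK2-negative cells. The difference was in the same direction in each cow, and cow 3 was low in every class. The range of triple-positive cells overlaps that of DLK2-only cells and lies just above that of DLK2-negative cells. After thinning to 5000 UMIs, with the classes still set on all UMIs, 56.2%, 44.6% and 18.6% of triple-positive cells had a UMI of THBS1. In DLK2-only cells the shares were 20.2%, 13.9% and 3.85%. In the unused part of the UMIs it was at 1.58 ± 1.11 against 0.444 ± 0.353 per 10000.

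Triple-positive cells with a UMI of THBS1 numbered 172, 447 and 48 in cows 1, 2 and 3, against 83, 317 and 143 without. PDK4 was at 5.24, 9.45 and 4.09 UMIs per 10000 in the former and at 4.84, 7.59 and 2.34 in the latter, and the summed immediate-early and stress genes were at 243, 244 and 128 against 181, 203 and 101 per 10000. The summed FOXO and fasting genes were at 22.4, 23.1 and 19.0 against 17.9, 19.5 and 15.2 per 10000. All 3 measures were higher in THBS1-positive cells of each cow, a difference that was not tested. CDKN1C was higher in cows 1 and 3, at 2.38 against 2.21 and 3.22 against 2.47, and level in cow 2 at 2.36 against 2.38 per 10000. DLK2 likewise stood at 2.16, 2.20 and 1.97 against 1.90, 2.21 and 1.74 per 10000. The summed spinous and terminal genes had no common direction, at 17.1, 20.1 and 19.8 against 13.5, 19.8 and 22.3 per 10000. The median mitochondrial share was lower in each cow, at 8.48%, 7.86% and 7.95% against 9.97%, 8.13% and 9.32%.

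The cells held the markers of keratinocytes and nearly none of other tissues. In triple-positive cells KRT5 (ENSBTAG00000038384) was at 2880.0, 3169 and 5331 CPM, KRT14 at 1823, 2633 and 3260.0 CPM and KRT15 at 3753, 4348 and 4144 CPM. Of fibroblast, blood and vessel genes, COL1A1, COL1A2, COL3A1, PTPRC, CD3D, MS4A1, PECAM1, CDH5 and KDR had 0 UMIs in the triple-positive cells of all 3 cows, where a count of 0 allows up to 3 UMIs per sum. The summed level over the 8 of 10 listed fibroblast genes in the table was at most 3.87 CPM in a cow, over 8 endothelial genes at most 4.06 CPM, over 8 smooth muscle and pericyte genes 1.94 to 3.87 CPM, over the 4 of 8 listed melanocyte and neural genes in the table at most 4.52 CPM and over 12 immune genes 19.5 to 22.6 CPM. The smooth muscle and pericyte sum was 2.44, 3.87 and 1.94 CPM in cows 1, 2 and 3, above the 0.615, 0.860 and 1.18 CPM of DLK2-only cells in each cow. None of those genes passed the filter on low counts, 1 was called higher with no filter, without cow 1 or without cow 3, and the part of this sum in the other results was not tested. Over the immune genes DLK2-only cells had 11.99, 13.4 and 18.8 CPM, and CD68 (ENSBTAG00000000133), a lysosomal protein known from macrophages, was the only one of the 4 tested that was called higher in edgeR's fit against DLK2-only cells (adjusted p = 0.00351, beside 11.1% of all genes), at 6.50, 7.21 and 9.68 CPM against 1.38, 3.99 and 2.11 CPM. CD52, a surface protein of lymphocytes, was also above without overlap, at 3.25, 2.00 and 2.58 CPM against 2.00, 1.72 and 1.99 CPM, but was not called.

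The main question was how the transcripts of triple-positive cells differ from those of DLK2-only cells of the same cow. UMI counts were summed per cow and class, and 10382 genes were tested with edgeR's quasi-likelihood test with a term for the cow and Benjamini-Hochberg adjustment over all genes. The log2 fold change is the difference of fitted log2 levels after TMM normalization, which sets the bulk of genes level between sums. Genes with a log2 fold change beyond 0.36 in size and an adjusted p below 0.05 were called higher or lower. Against DLK2-only cells, 1152 genes were called higher (11.1% of those tested) and 1043 lower (10.0%), together 21.1%. Against DLK2-negative cells, 1646 were called higher (15.9%) and 1534 lower (14.8%), together 30.6%. The CPM of the 3 cows did not overlap between the classes for 15.4% of genes against DLK2-only and 21.1% against DLK2-negative cells.

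Without TMM the split leaned upward, with 1727 higher and 722 lower against DLK2-only cells (70.5% higher, against 52.5% in the fit given) and 2404 and 1134 against DLK2-negative cells (67.9% against 51.8%), while the median log2 fold change of all genes moved from 0.03 to 0.14 and from 0.04 to 0.16. The calls also rest on pairing within the cow: with no term for the cow, 48 genes were higher and 93 lower against DLK2-only cells, and 240 and 340 against DLK2-negative cells.

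Against DLK2-only cells, the gene with the largest rise was AOX1 (ENSBTAG00000009725), an aldehyde oxidase of the cytosol. It was at 104, 40.3 and 42.6 CPM in triple-positive cells of cows 1, 2 and 3 and at 23.97, 4.69 and 5.85 CPM in DLK2-only cells. Each triple-positive sum lay above all 3 DLK2-only sums, and the log2 fold change was 2.48 ± 0.173 (SE), with an adjusted p of 6.64e-11 by edgeR. SPRY1 (ENSBTAG00000021245), an inhibitor of receptor tyrosine kinase signalling, was the steadiest over the cows. It was at 116, 128 and 125 CPM against 34.7, 34.4 and 38.2 CPM, with no overlap and a log2 fold change of 1.69 ± 0.0754 (adjusted p = 3.98e-14 by edgeR). SPRY1 was also the only one of the 12 genes with the largest rise that was still called with no term for the cow.

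The other 10 of these 12 genes were CCN2, RND1, TIMP2, IRF1, LMCD1, CREB3L1, THBS1, RGCC, ZFP36 and JUNB (ENSBTAG00000012046), with log2 fold changes from 1.63 for JUNB to 2.13 for CCN2. CREB3L1 (ENSBTAG00000006143), a transcription factor anchored in the endoplasmic reticulum that drives collagen genes, was at 36.6, 24.8 and 53.5 CPM against 9.37, 6.10 and 15.7 CPM. IRF1 (ENSBTAG00000031231), a transcription factor of the interferon response, was at 50.4, 147 and 28.4 CPM against 9.07, 37.8 and 5.53 CPM, and its classes overlap because cow 2 was high in both. RND1 (ENSBTAG00000018773), whose product loosens cell adhesion, followed the same order of cows, with 34.5, 154 and 10.3 CPM against 5.22, 36.9 and 1.43 CPM. All 12 kept their call when any 1 cow was left out, when cells were thinned to 5000 UMIs, and when the rule and the measurement used different UMIs of each cell.

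The 12 genes with the largest fall had log2 fold changes from -3.27 to -2.10. S100A8 (ENSBTAG00000012640), a calcium-binding protein of stressed and differentiating keratinocytes, was at 31.7, 41.9 and 61.3 CPM in triple-positive cells against 370.5, 263 and 232 CPM in DLK2-only cells. The classes do not overlap, and the log2 fold change was -2.76 ± 0.194 (adjusted p = 7.44e-11 by edgeR). SLC14A1 (ENSBTAG00000019870), the urea transporter UT-B, which carries urea across the rumen wall, was at 8.94, 8.54 and 7.10 CPM against 73.5, 42.7 and 48.8 CPM. This is a log2 fold change of -2.72 ± 0.123 (adjusted p = 3.98e-14 by edgeR), again with no overlap.

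CA1, a carbonic anhydrase, and FABP4, a fatty acid binding protein, were also lower, at log2 fold changes of -2.25 and -2.10. COX8B (ENSBTAG00000002046), a subunit of cytochrome c oxidase, was at 104, 52.6 and 13.5 CPM against 652, 225 and 82.3 CPM, lower in each cow although the cows' ranges overlap. IGFBP3 (ENSBTAG00000003994), which binds insulin-like growth factors, was at 4.47, 3.34 and 1.29 CPM against 39.2, 24.4 and 6.34 CPM. CENPF, CENPA and SPC24 of the kinetochore had log2 fold changes of -2.43, -2.40 and -2.13. M-SAA3 and SAA3, acute-phase genes with near-identical copies between which reads can be split, had log2 fold changes of -3.27 and -2.76 and were the only ones of the 12 that DESeq2 did not call. BREH1 completes the 12, at 8.94, 12.9 and 9.68 CPM against 46.9, 40.6 and 58.4 CPM.

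**Figure D3:**
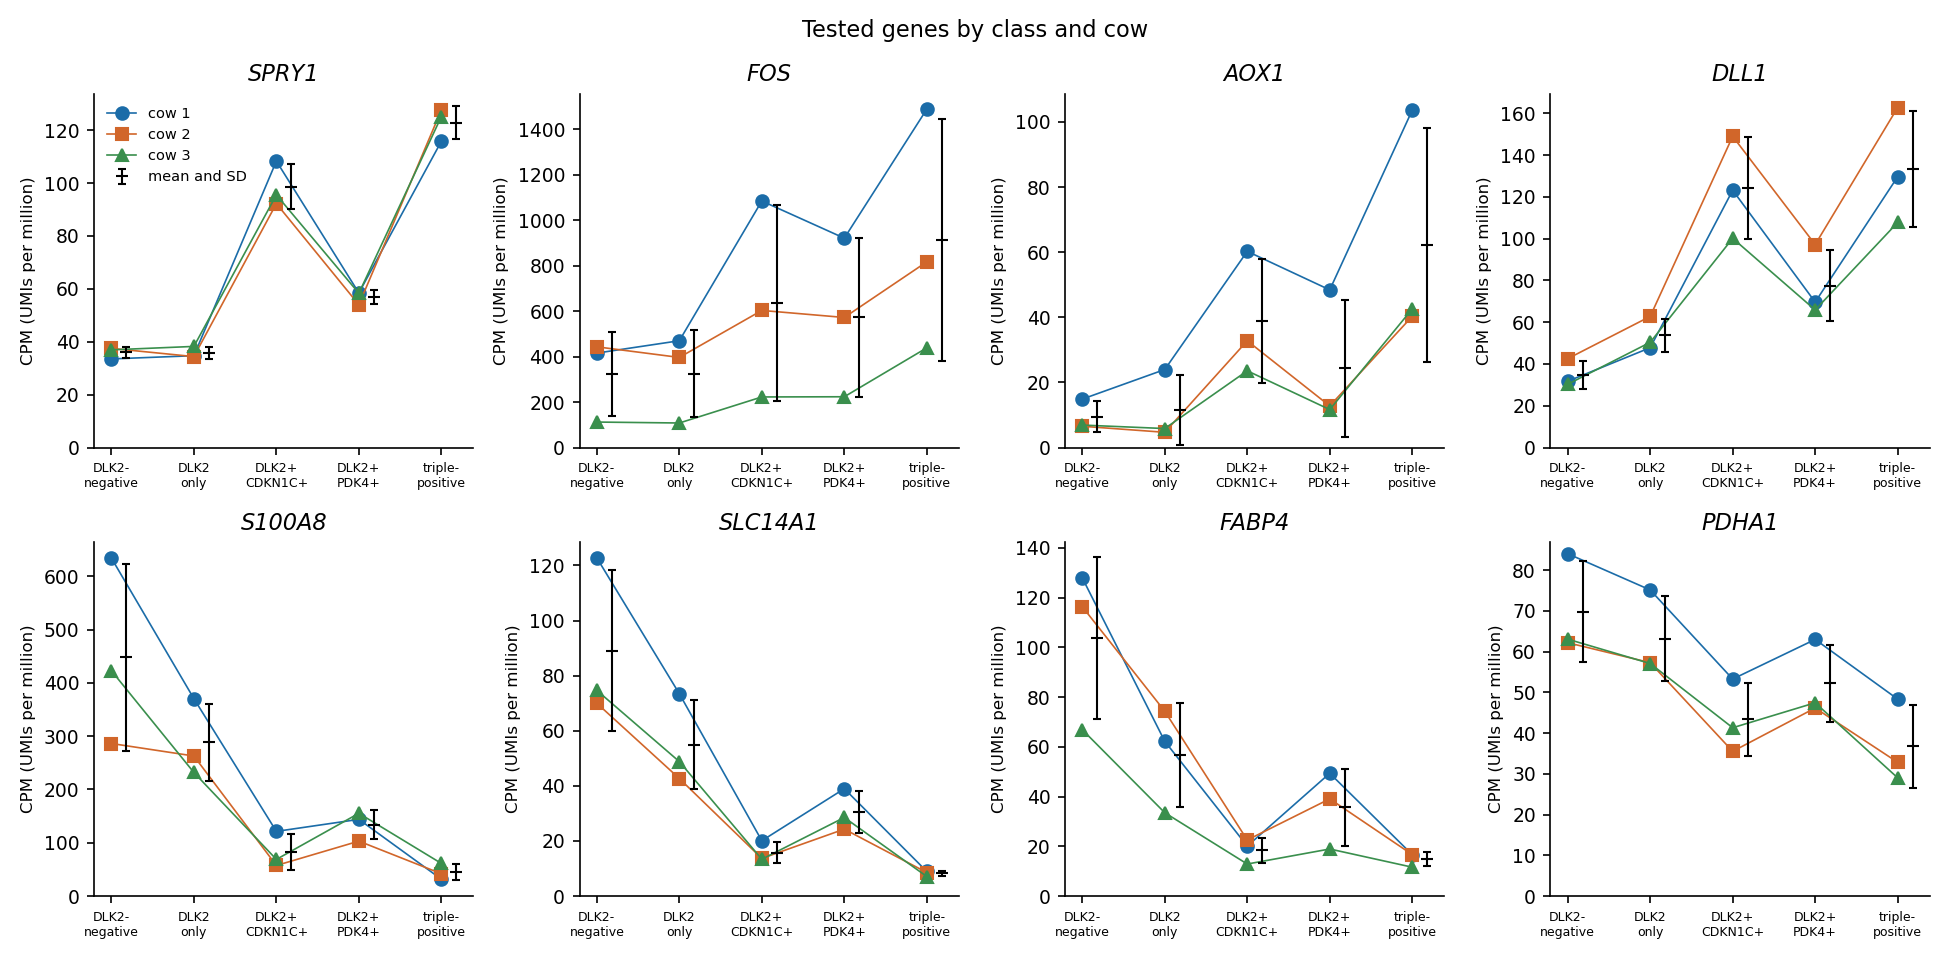
CPM of 8 tested genes in 5 classes of cells, with a line per cow and the mean with its SD over 3 cows in black. SPRY1, FOS, AOX1 and DLL1 were highest in triple-positive cells of each cow and S100A8, SLC14A1, FABP4 and PDHA1 lowest.

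Set against DLK2-negative cells, AOX1, THBS1, CREB3L1, LMCD1, CCN2 and TIMP2 were again among the 12 genes with the largest rise. The other 6 were P3H2, PXDN, CAMK2N1, CCDC3, DLL1 and ETV5. CCDC3 (ENSBTAG00000040490), a secreted protein, was at 302, 326 and 226 CPM against 56.5, 93.9 and 69.1 CPM, with no overlap and a log2 fold change of 1.86 ± 0.0984 (adjusted p = 1.39e-13 by edgeR). P3H2 (ENSBTAG00000021025), which hydroxylates collagen, was at 41.8, 25.9 and 59.3 CPM against 8.97, 6.42 and 14.7 CPM. ETV5 (ENSBTAG00000014915), an ETS factor downstream of growth factor signalling, was at 32.1, 17.6 and 23.9 CPM against 9.40, 3.88 and 8.98 CPM. All 3 were also called higher against DLK2-only cells, at log2 fold changes of 1.28, 0.95 and 1.13.

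The 12 with the largest fall against DLK2-negative cells were led by BPIFA2C (ENSBTAG00000031376), a secreted antimicrobial protein, at 18.7, 6.27 and 3.87 CPM against 338, 84.8 and 87.4 CPM (log2 fold change -4.27 ± 0.200, adjusted p = 1.32e-14 by edgeR). The others were WFDC18, MT1E.1, BREH1, POSTN, SLC14A1, S100A8, GSTA1, GJA1, COX8B, PCLAF and KRT6B, with log2 fold changes from -4.17 to -3.01. GSTA1 (ENSBTAG00000021516), a glutathione transferase, was at 24.4, 22.2 and 32.3 CPM against 272, 155 and 444 CPM. GJA1 (ENSBTAG00000001835), the gap junction protein connexin 43, was at 17.5, 8.81 and 1.29 CPM against 186, 61.3 and 32.1 CPM. For BPIFA2C, GSTA1 and GJA1 no triple-positive sum reached any DLK2-negative sum. MT1E.1 and KRT6B have close copies, so their split from those copies is uncertain.

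Immediate-early genes were higher as a group in triple-positive cells. These genes are switched on within minutes of a stimulus, and most encode transcription factors such as FOS, JUN and EGR1. Of 27 measured members of the list, 21 were called higher and 1 lower against DLK2-only cells, beside 11.1% and 10.0% of all genes, and the median log2 fold change was 0.93 beside 0.03 for all genes. Against DLK2-negative cells 20 were higher and 2 lower, beside 15.9% and 14.8%, with a median of 0.82. FOS (ENSBTAG00000004322), part of the AP-1 factor, was at 1489, 817 and 439 CPM against 469.9, 396 and 108 CPM in DLK2-only cells, with a log2 fold change of 1.46 ± 0.147 (adjusted p = 3.13e-08 by edgeR). JUNB, its partner, was at 1686, 1876 and 684 CPM against 514, 714 and 164 CPM. Each cow's triple-positive value was higher than its own DLK2-only value, but cow 3 was low in both classes, so the ranges overlap.

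The single members ranged widely. ZFP36, which shortens the life of cytokine transcripts, JUNB, EGR1, ATF3 and FOS had log2 fold changes from 1.46 to 1.69 against DLK2-only cells, and NR4A1 and FOSL2 had 0.45 and 0.49. The members that were not called were FOSL1, HSPA1A, HSPB1, HSP90AA1 and DNAJB1, and the one called lower was HSPA8, at -0.46. HSPA1A, the inducible heat shock protein, was called lower against DLK2-negative cells at -0.42, as was HSPA8 at -0.70. None of the 5 heat shock members was called higher in either comparison. Only 3 of the 27 had CPM that did not overlap between triple-positive and DLK2-only cells, beside 15.4% of all genes, and with no term for the cow edgeR called 0 of 27, where over all genes it called 141, with 1304 at an unadjusted p under 0.05. Among cells of 8000 to 20000 UMIs the count was again 21 higher and 1 lower of 27, and among cells with a mitochondrial share under 20% likewise 21 and 1. Over all genes these fits called 708 and 1017 higher and 760 and 899 lower, of 9443 and 9612.

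**Figure D4:**
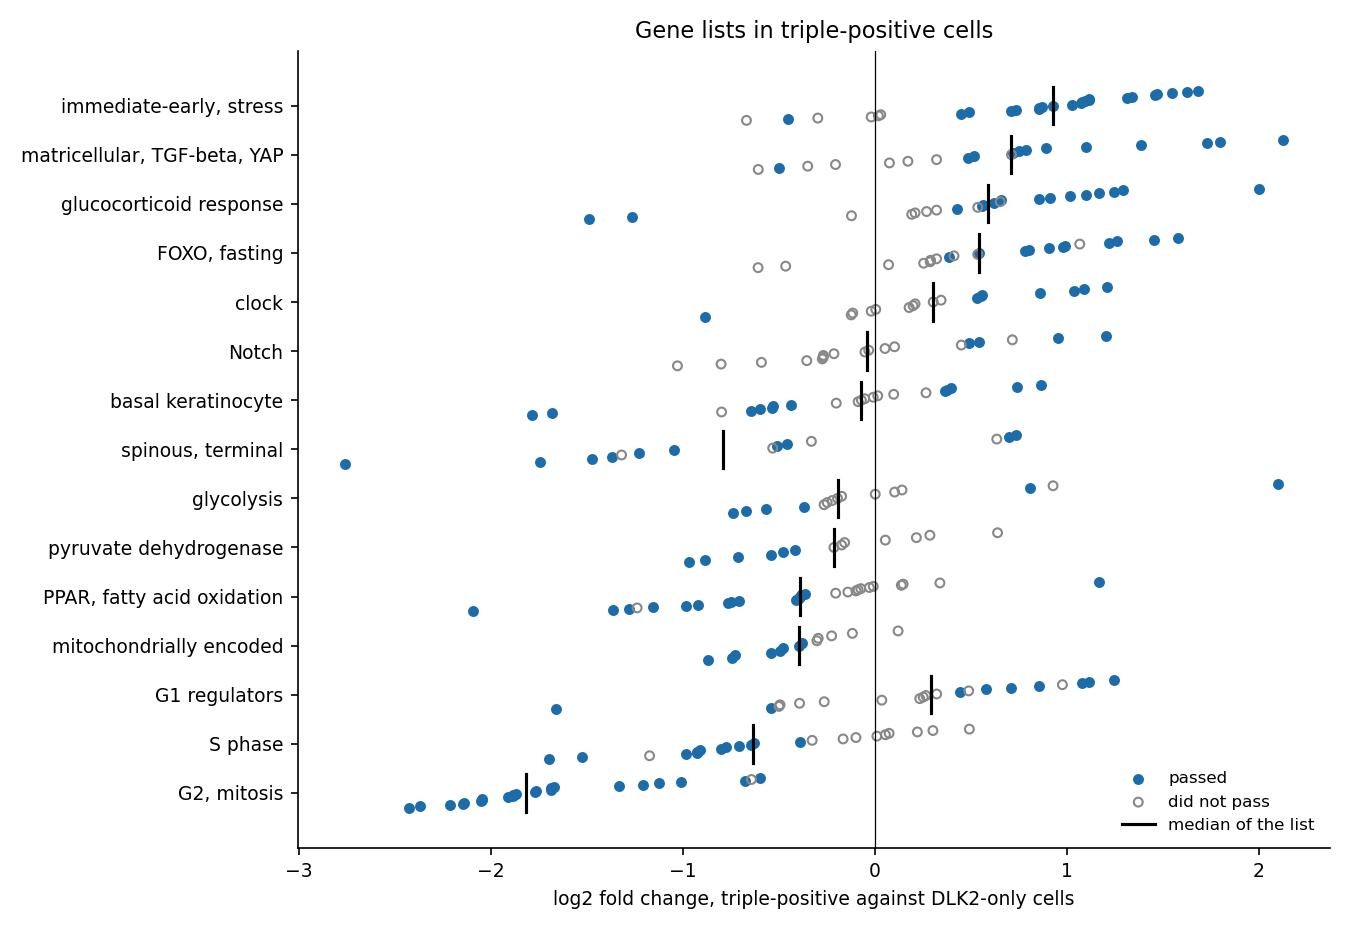
Log2 fold change of triple-positive against DLK2-only cells for each measured gene of 15 lists, where a filled point is a gene that was called, an open point is one that was not, and the black bar is the median of the list. Immediate-early genes had a median of 0.93, and G2 and mitosis genes one of -1.82.

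Many genes of the matrix and of TGF-beta and YAP signalling were higher. Of 19 tested members, THBS1 among them, 11 were called higher and 1 lower against DLK2-only cells (median log2 fold change 0.71), beside 11.1% and 10.0% of all genes, and 13 higher and 1 lower against DLK2-negative cells (median 0.82), beside 15.9% and 14.8%. CCN1 (ENSBTAG00000009844), a matricellular protein and YAP target, was at 238, 173 and 100 CPM against 90.4, 62.0 and 29.6 CPM in DLK2-only cells, with a log2 fold change of 1.39 ± 0.0954 (adjusted p = 5.80e-11 by edgeR) and no overlap. CCN2 (ENSBTAG00000006367), its relative, was at 39.8, 35.6 and 7.10 CPM against 9.07, 7.27 and 0.746 CPM, higher in each cow and overlapping through cow 3. The ligand TGFB2, the receptors TGFBR2 and TGFBR3, and the feedback genes SMAD7 and SKIL were also called, at log2 fold changes of 1.73, 0.89, 0.79, 0.52 and 0.48.

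TNC, a matrix glycoprotein, and AMOTL2, a YAP target, were at 0.72 and 0.75. The ligand TGFB1 (-0.21), the receptor TGFBR1 (-0.61), SMAD2, SMAD3 and SMAD4 (0.32, 0.71 and 0.08), TGFBI (-0.35) and AJUBA (0.17) were not called. CD47 (ENSBTAG00000003585), a membrane receptor of thrombospondin-1, was the one called lower, at 24.02 ± 2.88 CPM against 31.0 ± 0.489 (log2 fold change -0.50). Without cow 2 the count against DLK2-only cells was 5 higher and 0 lower of 18, the lowest of any cow left out. Over all genes that fit called 689 higher and 734 lower of 9955. With no term for the cow 1 of 19 was higher, beside 48 of 10382 of all genes. The count was 4 of 15 after thinning, where 444 of 8235 genes in all were higher. With the rule and the measurement on different UMIs it was 5 of 14, where 429 of 7765 were.

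Of the glucocorticoid response list, 13 of 22 tested genes were called higher and 2 lower in either comparison, beside 11.1% and 10.0% of all genes against DLK2-only and 15.9% and 14.8% against DLK2-negative cells, with a median log2 fold change of 0.59 against DLK2-only and 0.66 against DLK2-negative cells. Against DLK2-only cells 7 were not called, among them TSC22D3, also known as GILZ, FKBP5 and PER1. Their log2 fold changes were -0.12 ± 0.239, 0.27 ± 0.220 and 0.21 ± 0.152, with edgeR adjusted p of 0.769, 0.407 and 0.341. The part of the hormone was not tested. The metallothioneins MT2A and MT1E, which the hormone also induces, were lower, MT2A at 377, 361 and 396 CPM against 902, 903 and 746 CPM, a fold change of -1.26 on the log2 scale.

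The 13 called higher against DLK2-only cells included KLF9, SGK1, ZBTB16, CEBPD, DUSP1, ERRFI1, NFKBIA, GLUL, ANGPTL4, NR3C1, DDIT4 and CDKN1A. Among them ZBTB16 had the largest value, 2.00 ± 0.312, but it rested on cow 1, with 24.4 CPM against 5.69, and stood at 2.40 against 0.391 CPM in cow 2 and 0 against 0.124 CPM in cow 3. NR3C1, the receptor itself, was at 0.56. With no term for the cow, 0 genes of the list were higher and the same number, 2, were lower against DLK2-only cells. Over all genes 48 were higher and 93 lower of 10382 in that fit.

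FOXO and fasting genes were higher or not called, and none was lower. Of 21 tested, 11 were called higher against DLK2-only cells, beside 11.1% of all genes, and 13 against DLK2-negative cells, beside 15.9%, with medians of 0.54 and 0.78. FOXO1 (ENSBTAG00000044105), the transcription factor that insulin keeps out of the nucleus, was at 34.5, 33.8 and 23.9 CPM against 16.7, 13.4 and 14.4 CPM, with no overlap and a log2 fold change of 0.99 ± 0.109 (adjusted p = 1.29e-07 by edgeR). GADD45A (ENSBTAG00000013860), which slows the cell cycle after stress, was at 448, 643 and 304 CPM against 126, 316 and 81.1 CPM. TXNIP (ENSBTAG00000020060), which limits glucose uptake, was at 843, 679 and 723 CPM against 647, 444 and 534 CPM, each cow higher and the classes apart.

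GADD45B, PIK3IP1, SESN3, DEPP1, SESN2, FBXO32, CITED2 and BNIP3L were the others, from 1.58 for GADD45B to 0.54 for BNIP3L. FOXO3 (-0.47), FOXO4 (0.07), INSR (-0.61) and KLF15 (1.07) were not called. The CPM of 11 of the 21 genes did not overlap between the classes, all above, beside 15.4% of all genes. With no term for the cow 1 of the 21 was called higher, beside 48 of 10382 of all genes. The count was 7 of 16 after thinning and 5 of 15 with the rule and the measurement on different UMIs, beside 444 of 8235 and 429 of 7765 of all genes.

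Of 13 tested genes of pyruvate dehydrogenase and its regulators, 0 were called higher and 6 lower against DLK2-only cells, beside 11.1% and 10.0% of all genes, and 1 higher and 7 lower against DLK2-negative cells, beside 15.9% and 14.8% (medians -0.21 and -0.38). The 6 became 3 of 12 with at least 2 UMIs of each gene of the rule and 4 of 11 after thinning, beside 557 of 8409 and 497 of 8235 of all genes called lower. PDHA1 (ENSBTAG00000019852), the subunit that PDK4 phosphorylates, was at 48.3, 32.8 and 29.0 CPM against 75.1, 57.3 and 57.1 CPM, with no overlap and a log2 fold change of -0.89 ± 0.0804 (adjusted p = 5.01e-09 by edgeR). PDHB, DLAT and DLD, further subunits of the complex, were at -0.48, -0.72 and -0.54, and the subunit PDHX, at -0.21, was not called. LDHA (ENSBTAG00000008683), which turns pyruvate into lactate, was at 243, 346 and 281 CPM against 463, 585 and 554 CPM, a fold change of -0.97. The summed level of the list was 921 ± 80.1 CPM in triple-positive cells and 1262 ± 167 in DLK2-only cells (mean ± SD, n = 3 cows). It was 1012 ± 132 CPM in cells with DLK2 and CDKN1C but no PDK4. In cells with DLK2 and PDK4 but no CDKN1C it was 1113 ± 165 CPM. The part of PDK4 in this fall was not tested.

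Among the other kinases of the complex, PDK1 and PDK2 were not called (0.22 and 0.05), though PDK1 was called higher against DLK2-negative cells at 0.40. PDK3 was called lower, at -0.41 and -0.87. Neither phosphatase PDP1 nor PDP2 was called (0.29 and 0.64).

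Genes of fatty acid oxidation and of ketone body synthesis, through which the rumen wall turns butyrate into beta-hydroxybutyrate, were mostly lower or not called. Of 27 tested, 1 was called higher and 15 lower against DLK2-only cells (median -0.39), beside 11.1% and 10.0% of all genes, and 2 higher and 15 lower against DLK2-negative cells (median -0.52), beside 15.9% and 14.8%. FABP4 (ENSBTAG00000037526), which carries fatty acids within the cell, was at 16.7, 16.7 and 11.6 CPM in triple-positive cells against 62.2, 74.3 and 33.5 CPM, with no overlap between the classes. Its log2 fold change was -2.10 ± 0.133 (adjusted p = 1.51e-11 by edgeR). BDH1, which makes beta-hydroxybutyrate, and the thiolase ACAT1 were at -1.15 and -0.92, and the lipid carrier FABP5 was at -1.37. The mean summed level of the list was 3337 CPM in triple-positive cells and 5336 CPM in DLK2-only cells. It was 3662 CPM in cells with DLK2 and CDKN1C but no PDK4, and 4612 CPM in those with DLK2 and PDK4 but no CDKN1C.

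The one gene of the list that was called higher was ANGPTL4 (ENSBTAG00000002473), a secreted inhibitor of lipoprotein lipase that shares its PPAR and glucocorticoid control with PDK4. It was at 79.2, 110.5 and 43.9 CPM against 25.4, 46.3 and 23.1 CPM, a log2 fold change of 1.17 ± 0.103 (adjusted p = 3.11e-09 by edgeR). CPT1A, the entry point of fatty acids to mitochondria, was at -0.07 and HADHA at -0.03, neither of which was called. The lipid droplet protein PLIN2, at 0.34 under the fold threshold, was called higher only against DLK2-negative cells, at 0.46. Without TMM 9 genes were lower in place of 15, and with no term for the cow 3, beside 722 and 93 of all 10382 genes.

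Glycolysis had no common direction. Of 15 tested, PFKFB3 (0.81), which makes the activator of phosphofructokinase, and HK2 (2.10) were called higher and GPI, ALDOA, TPI1 and PGK1 lower, at -0.37 to -0.74, so that the 2 higher genes are near the 11.1% of all genes called higher and the 4 lower stand beside 10.0%. HK2, a hexokinase, rested on 5, 12 and 1 UMIs in triple-positive cells and 1, 7 and 0 in DLK2-only cells. Against DLK2-negative cells PFKFB3 alone was higher, and 5 were lower, beside 15.9% and 14.8% of all genes. Transcripts of the mitochondrial genome were lower for 8 of 13 genes, led by COX1 at -0.87 and CYTB at -0.74, and none was higher, beside 10.0% lower and 11.1% higher of all genes. Their summed level was 121759, 88303 and 95562 CPM in triple-positive cells, against 182396, 119531 and 127999 CPM in DLK2-only cells, lower in each cow. In cells with DLK2 and CDKN1C but no PDK4 it was 121848, 92495 and 105658 CPM. The part of the mitochondrial share in the other results was not tested beyond the cells with a share under 20%, where 1017 genes were higher and 899 lower.

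Regulators of G1 that slow the cell cycle and ones that drive it were both among the genes called higher. CDKN1A (ENSBTAG00000008353), which encodes p21, was at 134, 219 and 70.3 CPM against 50.6, 113 and 12.4 CPM in DLK2-only cells, a log2 fold change of 1.25 ± 0.160 (adjusted p = 1.43e-06 by edgeR), higher in each cow though the ranges overlap. BTG1, BTG2 and TOB1, of a family that slows growth, were at 1.08, 1.12 and 0.71. Of 20 tested G1 regulators 7 were higher and 2 lower (median 0.29), beside 11.1% and 10.0% of all genes, but the 7 also hold the growth-promoting MYC (0.85) and the D cyclins CCND2 and CCND3 (0.58 and 0.44), and MYC, BTG1 and BTG2 were counted with the immediate-early list too. CDKN1B, which encodes p27, was at 0.32 and not called against DLK2-only cells, and was called at 0.40 against DLK2-negative cells. RB1 (-0.54), a brake on entry to S phase, and CDKN3 (-1.66) were the 2 lower genes.

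Genes of mitosis, and fewer of DNA synthesis, were lower. The rule asks for a UMI of CDKN1C in triple-positive cells and for 0 in DLK2-only cells. Dividing cells held CDKN1C less often, in 4.17%, 4.96% and 6.44% against 21.1%, 19.2% and 19.1% of other cells. They also held DLK2 less often, in 17.7%, 21.3% and 18.9% against 43.7%, 52.1% and 26.9% of other cells. For PDK4 the shares were 25.5%, 41.8% and 17.6% against 43.1%, 64.2% and 19.0%. Triple-positive cells needed UMIs of both genes, while DLK2-negative cells had 0 of DLK2 and DLK2-only cells 0 of PDK4. The direction of this fall was thus in part set by the rule in both comparisons, and how far was not tested. Of 24 tested genes of G2 and mitosis, 0 were higher and 23 lower against DLK2-only cells (median -1.82), beside 10.0% lower of all genes, and 24 lower against DLK2-negative cells (median -2.27), beside 14.8%. Of 22 tested genes of S phase, 0 were higher and 12 lower (median -0.64), and 17 lower against DLK2-negative cells (median -1.10), beside the same shares. The 12 of S phase became 6 of 22 among cells of 8000 to 20000 UMIs, 3 of 20 after thinning, 2 of 20 with the rule and the measurement on different UMIs, and 2 of 20 with 1 higher under the 2-UMI rule, and 8 of 22 without cow 2. Over all genes the 1043 lower calls of 10382 fell as well, to 760 of 9443, 497 of 8235, 461 of 7765, 557 of 8409 and 734 of 9955 in the same order. MKI67 (ENSBTAG00000002444), a marker of dividing cells, was at 4.47, 3.74 and 23.9 CPM against 41.2, 12.7 and 51.3 CPM in DLK2-only cells. Cow 3 had the highest value in triple-positive cells, above the DLK2-only value of cow 2, so the classes overlap. Cells with at least 2 UMIs each of MKI67 and TOP2A were 0.392%, 0.524% and 1.57% of triple-positive cells, against 3.97%, 1.44% and 8.10% of DLK2-only cells.

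In an alternative added after the data were seen, every cell with a UMI of MKI67 or TOP2A was left out of all classes. Then 3 of 16 tested G2 and mitosis genes were lower and 1 was higher, and 7 of 21 S phase genes were lower. Over all genes 909 were lower and 1025 higher of 10050. MKI67 and TOP2A are themselves in the mitosis list, so a smaller fall was in part set by leaving these cells out. Mitotic genes not tested in this fit were below the filter on low counts. AURKA, HMMR and KIF20B then stood at 0.99, 0.75 and 0.44. The rest of the comparison moved less, with 1025 genes higher and 909 lower, and 21 higher and 1 lower of the 27 immediate-early genes. Among cells of 8000 to 20000 UMIs 8 of the 24 mitotic genes were lower, on different UMIs 10 of 24, after thinning 13 of 21, and with no term for the cow edgeR called 0 of them, beside 141 of all genes and 1304 at an unadjusted p under 0.05.

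**Figure D5:**
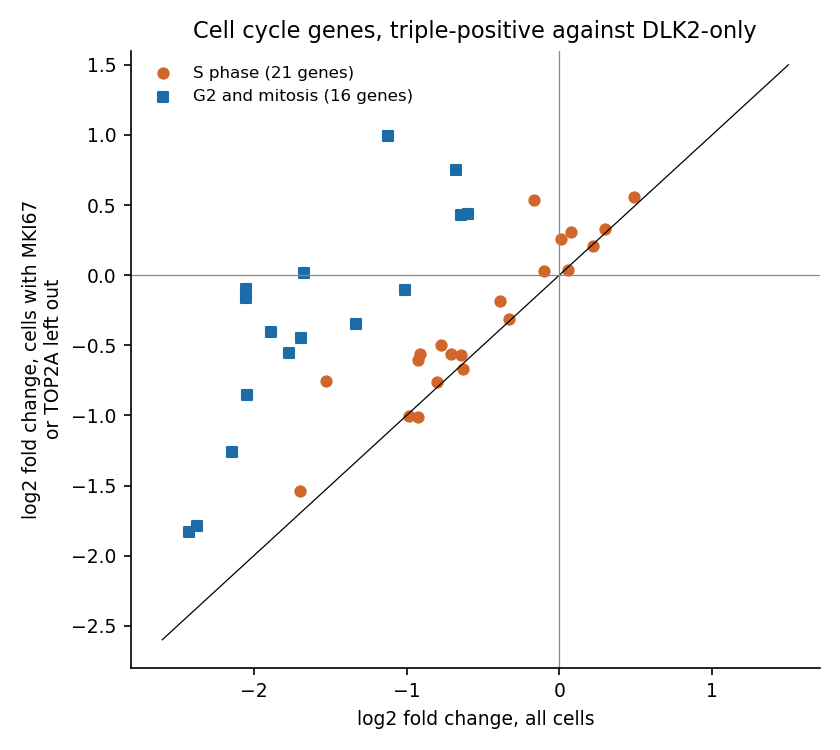
Log2 fold change of triple-positive against DLK2-only cells for genes of S phase (21 genes) and of G2 and mitosis (16 genes), with all cells on the x axis and with every cell that held a UMI of MKI67 or TOP2A left out on the y axis. Points above the diagonal line had a higher log2 fold change when those cells were left out, and AURKA went from -1.12 to 0.99.

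DLK2 is kin to the Notch ligands, and 4 of 18 tested Notch genes were higher against DLK2-only cells, beside 11.1% of all genes. DLL1 (ENSBTAG00000031476), a ligand, was at 129.6, 163 and 108 CPM against 47.8, 62.8 and 50.4 CPM, with no overlap and a log2 fold change of 1.204 ± 0.0675 (adjusted p = 1.74e-12 by edgeR). RBPJ (ENSBTAG00000003602), the DNA-binding partner of the pathway, was at 217, 178 and 139 CPM against 99.9, 84.2 and 73.1 CPM, likewise with no overlap (0.95 ± 0.0689). The ligand JAG1 and the target HES1 were at 0.54 and 0.49. Of the list 0 were called lower, beside 10.0% of all genes, and the median of the list was -0.04, near that of all genes.

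No receptor was called against DLK2-only cells, with NOTCH1, NOTCH2 and NOTCH3 at -0.59 ± 0.320, -0.80 and -1.03 ± 0.390. Against DLK2-negative cells NOTCH1 and NOTCH3 were called lower, at -1.41 and -2.39, together with the target HES2 at -1.04. These 3 of 18 tested genes are near the 14.8% of all genes called lower there. Called higher there, beside 15.9% of all genes, were 6 genes, namely DLL1 (1.83), RBPJ (1.22), MAML2 (1.07), LFNG (0.99), JAG1 (0.61) and JAG2 (0.40). HES1 was level with DLK2-negative cells, at 0.00 ± 0.0824, since its CPM was lowest in DLK2-only cells.

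Basal keratinocyte genes went both ways. Of 21 tested, 5 were higher and 7 lower against DLK2-only cells (median -0.07), beside 11.1% and 10.0% of all genes, and 7 higher and 5 lower against DLK2-negative cells (median 0.11), beside 15.9% and 14.8%. Against DLK2-only cells KRT5, KRT14 and KRT15, the basal keratins, were modestly lower, at -0.53, -0.44 and -0.54, and the integrin ITGA6 and the laminin LAMB3 were at -0.65 and -0.60. The integrins ITGA2 and ITGB1, the receptor EGFR, the factor SNAI2 and SOSTDC1, an inhibitor of BMP signalling, were higher, at 0.74, 0.40, 0.37, 0.37 and 0.87. POSTN (-1.79), a matrix protein, and IGFBP6 (-1.68) had the largest falls. Without cow 1 the list held 2 higher genes, and it held 2 among cells of 8000 to 20000 UMIs, 1 with at least 2 UMIs of each gene of the rule, 1 with the rule and the measurement on different UMIs and 0 after thinning, where 6 to 8 were lower. Over all genes the higher calls in these fits were 898 of 10834, 708 of 9443, 516 of 8409, 429 of 7765 and 444 of 8235. KRT8 and KRT18 (ENSBTAG00000001517), keratins of simple epithelia, were higher at 1.28 and 1.201, KRT18 at 13.4, 22.7 and 16.1 CPM against 8.45, 9.61 and 4.73 CPM.

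Genes of the spinous and outer layers were mostly lower or too rare to test. Of 35 listed, 28 were in the table and 14 were tested, of which 2 were higher and 8 lower against DLK2-only cells (median -0.79), beside 11.1% and 10.0% of all genes, and 2 higher and 12 lower against DLK2-negative cells (median -1.66), beside 15.9% and 14.8%. KRT10 (ENSBTAG00000020824), the keratin of cells that have left the basal layer, was at 19.5, 22.02 and 18.1 CPM against 25.7, 26.8 and 24.4 CPM, a small but not overlapping difference of -0.46 ± 0.115 (adjusted p = 0.00397 by edgeR). KRT6A (ENSBTAG00000039425) was at 54.8, 87.7 and 127 CPM against 144, 182 and 266 CPM. OVOL1 and ZNF750, factors of differentiation, were at -1.48 and -1.74, and at -2.16 and -4.05 against DLK2-negative cells. The 2 that were higher, KLF4 (0.73) and PRDM1 (0.70), are factors of differentiation too, and KLF4 also stands in the immediate-early list. IVL, LOR, DSG1, KRT1 and KRT4 were among those below the filter on low counts. The mean summed level of the list was 1924 CPM in triple-positive cells and 2669 CPM in DLK2-only cells. It was 2057 CPM in cells with DLK2 and CDKN1C but no PDK4, and 2173 CPM in those with DLK2 and PDK4 but no CDKN1C.

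Genes of the circadian clock contributed 7 higher and 1 lower of 17 tested in either comparison (medians 0.30 and 0.37), beside 11.1% and 10.0% of all genes against DLK2-only and 15.9% and 14.8% against DLK2-negative cells. The 7 became 4 of 12 after thinning and 4 of 12 with the rule and the measurement on different UMIs, beside 444 of 8235 and 429 of 7765 of all genes. NR1D1 (ENSBTAG00000012178), the repressor REV-ERB alpha, was at 58.5, 72.6 and 45.8 CPM against 24.4, 28.8 and 17.9 CPM, with no overlap and a log2 fold change of 1.21 ± 0.0866 (adjusted p = 9.38e-11 by edgeR). HLF and DBP, output factors of the clock, were at 1.09 and 0.86, and ARNTL, the positive arm, at 0.56. PER1, PER2, CRY1 and CLOCK were not called (0.21, -0.12, 0.30 and 0.18). The one lower gene was BHLHE41, at -0.88, while its relative BHLHE40 was at 1.04.

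A last list held genes that earlier results of these data had tied to DLK2 cells, so it is no independent evidence of a direction. Of 13 tested, 3 were higher and 7 lower against DLK2-only cells and 3 higher and 9 lower against DLK2-negative cells, beside the same shares of all genes as above. The 3 higher were AOX1, SOSTDC1 and IGFBP2 (1.56). IGFBP3 and IGFBP5 were lower at -3.01 and -0.86, and GSTA1, TMEM79, GJA1 and BPIFA2C at -1.61, -1.43, -2.09 and -1.67. CCL20 (ENSBTAG00000021326), a chemokine, was at 15.8, 39.5 and 0 CPM against 9.53, 174 and 3.11 CPM, and its call (-1.97) turned to 0.38 when cow 2 was left out.

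Cells with DLK2 and only 1 of the other genes of the rule are described by a pair of genes that were called between the end classes, a choice that favours values in between. SPRY1 was at 58.5, 54.0 and 58.3 CPM in cells with PDK4 and at 108, 92.2 and 95.5 CPM in cells with CDKN1C. The mean of DLL1 was 77.5 ± 17.1 CPM in the former and 124 ± 24.4 in the latter, beside 133 ± 27.7 in triple-positive cells. For both genes the cells with CDKN1C alone lay nearer to triple-positive cells than those with PDK4 alone did, a difference that was not tested. Not every list had this order. The summed immediate-early and stress genes were at 17957, 16415 and 7352 CPM with CDKN1C alone and at 16056, 17531 and 7823 CPM with PDK4 alone. Triple-positive cells had 22409, 22719 and 10737 CPM. Median UMIs ran from 7481 to 8598 in cells with DLK2 and CDKN1C and from 9490 to 11394 in cells with DLK2 and PDK4, and their part in this order was not tested.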

How the data were processed

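The authors aligned reads to the bovine ARS-UCD1.2 genome, counted UMIs with Cell Ranger 3.1.0, filtered cells, marked doublets with DoubletFinder and removed other cell types. They deposited UMI counts per gene and cell. They also deposited natural log (ln) values of the same cells scaled to 10000 UMIs per cell, which were used here for gene names and to check the rows. Of the matrix rows, 977 were recomputed from the counts and none differed beyond 1e-06. The cow was taken from the barcode suffix by its number, a link that the labels do not state outright.

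UMI counts were summed per cow and class (15 sums, all cells used). In R 4.3.3, edgeR 4.0.16 was run with TMM, filterByExpr, the quasi-likelihood test, a term for the cow and Benjamini-Hochberg adjustment. DLK2, PDK4 and CDKN1C stayed in library sizes and out of the test. The common biological coefficient of variation was 0.0580. Sums of 1 cow correlated at a mean of 0.643 after class means were taken out (lowest 0.418), so the cow was kept as a block. Sums of different cows stood at -0.320, which follows from taking out class means over 3 cows and is no separate evidence. The design pairs classes, because each cow gave every class. The script was tested on simulated data. Named were the rule genes, THBS1, list members, and in each comparison the 12 genes with the largest change in each direction. These had a symbol, were called, moved alike in 3 cows and had a mean of at least 20 CPM in the higher class. The part of this rule that asked for correlations with PDK4 and CDKN1C was not run, since the cell rule sets both to 0 in several sums. Doublets were not called again. The cells and lists were chosen with earlier results of these data known. DESeq2 1.42.0 and the alternatives of the closing section were tried. Other steps used Python 3.11.15 (pandas 2.3.3, numpy 2.4.6, scipy 1.17.1, matplotlib 3.10.9). Each mean has only 3 cows behind it, and the smallest two-sided p of an exact sign-flip permutation over them is 0.25, so no such test is given. Genome positions and sequences were not used here. Some list members are counted but not reported by name here.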

Additional observations from a re-analysis of the deposited data

How the results depend on the processing

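Against DLK2-only cells, 1152 genes were higher and 1043 lower. With no replicate block for the cow the counts were 48 and 93, so the calls rest on the pairing of classes within a cow. They were 708 higher among cells of 8000 to 20000 UMIs, 444 and 497 after thinning to 5000 UMIs, 429 and 461 with the rule and the measurement on different UMIs of each cell, and 516 and 557 with at least 2 UMIs of each gene. Leaving out 1 cow gave 689 to 1032 higher and 734 to 1062 lower, lowest without cow 2. Against DLK2-negative cells the counts, 1646 and 1534, became 240 and 340 with no block, 837 and 889 after thinning, 733 and 798 on different UMIs and 976 and 1017 with at least 2 UMIs. Sums from thinned or divided cells or the 2-UMI rule hold fewer UMIs or cells and test fewer genes. In the thinned fit the rule was applied again to the thinned UMIs, which left 90, 384 and 81 triple-positive cells. The mean share of triple-positive cells was 1.52% with at least 2 UMIs of each gene. DESeq2, no filter on low counts, the 2 classes alone, a mitochondrial share under 20% and a log2 threshold of 0.25 left each count within 1.5 times.

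Named genes that were called in at least 1 of the fits compared and changed sign against DLK2-only cells were FOSL2 (-0.024), PLK1 (0.32) and HMMR (0.39) after thinning, HELLS (0.23) on different UMIs, SOSTDC1 (-0.19) and ARNTL (-0.14) with at least 2 UMIs, CCL20 (0.38 without cow 2, from -2.27 to 0.38 over the cows left out), and AURKA (0.99), UBE2C (0.016), HMMR (0.75) and KIF20B (0.44) with cells holding MKI67 or TOP2A left out. Against DLK2-negative cells they were RBL2 (-0.024) after thinning, CLSPN (0.16), AURKA (0.44), NUSAP1 (0.45), HMMR (0.76) and KIF20B (0.17) with those cells left out, and CCL20 with DESeq2 (0.11), without cow 2 (1.21, from -1.14 over the cows left out) and among cells of 8000 to 20000 UMIs (0.21). Genes called in neither fit are not listed. The cause was not tested.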
